A study of Mus musculus with 32 samples.

Results

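In mouse FE1 cells exposed to hydrazine for 4 h, 100 genes were chosen by their measured levels, since their transcripts were higher than in the vehicle at 4 mM and lower than in the vehicle at 10 mM. FE1 is a line of lung epithelial cells from a transgenic mouse, and hydrazine is a small reactive nitrogen compound that is toxic to cells and to DNA. CPM (counts scaled to a common library size) were computed from each library's total, and genes with a mean of at least 5 CPM in a 4 h group were eligible. Group means of log2(CPM + 0.5) were compared, and each gene was scored by the smaller of 2 differences, 4 mM minus vehicle and vehicle minus 10 mM. The 100 genes with the highest scores were taken out of 10383 eligible genes and 49585 entries of the table. A score above 0 was found for 2532 eligible genes, or 24.4%.

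The cells received 0, 1, 4, 6 or 10 mM hydrazine for 4 h and were collected at once, or were kept for a further 20 h without the compound (washout). The cells given 0 mM are called the vehicle here. Each group had 3 libraries, apart from 4 mM at 4 h, which had 5, and all came from the same line. The labels do not say whether the libraries of a group were separate cultures, so p-values measure how far these samples spread, and that spread may be technical.

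Library totals ran from 10560942 to 17086721 counts. Library c of 6 mM after washout stood apart from the others of its group, with a chi-square per degree of freedom of 43.1 and 43.9 against them, where other pairs of replicates gave 2.04 to 12.5. Calls of members against the vehicle at 6 mM after washout are therefore given with and without it. Counts of gene lists and of all tested genes, values of other genes and the figures include it. The defining epithelial markers were low: of 15 listed, only Esrp2 had a median over 5 CPM, and 13, Epcam and Cdh1 among them, were under 1 CPM, with a sum of 16.4 to 25 CPM per library. Of 14 alveolar and airway epithelial markers, Pdpn (77.5 CPM), Abca3 (46.4 CPM) and Hopx (12.5 CPM) had medians over 5 CPM, and the other 11, the surfactant proteins and Nkx2-1 among them, were under 1 CPM. These 14 summed to 125 to 163 CPM per library. Of 15 mesenchymal markers, 12 were over 5 CPM, summing to 6811 to 9970 CPM per library, and no endothelial or leukocyte marker was over 5 CPM. The part of cell identity in the results was not tested. In bulk RNA, fewer cells with a transcript and less of that transcript per cell cannot be told apart.

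No single pathway held most of the members, but the enzymes that make cholesterol gave the largest share of any listed pathway. Animal cells build cholesterol from acetyl-CoA through mevalonate, isoprenoids, squalene and lanosterol. When sterols run low in the endoplasmic reticulum, the transcription factor SREBP2 is released by proteolysis and raises the transcription of nearly every enzyme of the route, together with the promoter factors NF-Y and Sp1. Other members belong to DNA replication and repair, to redox defence, to the circadian clock, to signalling and to the large family of zinc finger proteins.

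The values that chose the members are given first, as a description with no test. The score ran from 0.41 to 1.09, with a median of 0.48 on the log2 scale. The difference of 4 mM from vehicle ran from 0.41 to 1.71 with a median of 0.53, and the difference of vehicle from 10 mM ran from 0.41 to 1.69 with a median of 0.59. In CPM by library total, the median eligible gene was itself 0.11 lower at 10 mM than in the vehicle on the log2 scale, so differences at 10 mM are to be read against that shift. In the scaled model used for the tests below, the median difference of all tested genes was 0.01 at 10 mM, and the members' medians were 0.55 at 4 mM and -0.52 at 10 mM. At the edge of the choice, Kantr, Aldh5a1 and Oxsm lay just inside with scores of 0.415, 0.414 and 0.413. Zscan29, Gm8113 and Ppcdc lay just outside with 0.413, 0.413 and 0.412, so the boundary separates no distinct class.

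The members were mostly transcripts of modest abundance, with a median of 8.54 CPM in the 4 h vehicle where the median eligible gene had 39.4 CPM. The minimum of 5 CPM could be met in any 4 h group, and the lowest member mean was 1.99 CPM in the vehicle and 5.33 at 4 mM. Their abundance is thus bound up with the choice, which changed with that minimum, and was not tested as a trait of its own. All 100 had their lowest 4 h group mean at 10 mM, and 90 had their highest at 4 mM. Of all eligible genes, 44.8% had their lowest at 10 mM and 18.4% had their highest at 4 mM. The highest mean was at 1 mM in 8 members (Castor2, Sfxn5, Phactr1, Map3k5, Zfp467, Crb2, Zfp169 and Tmod2) and at 6 mM in Elmod3 and Greb1l. The single libraries separated as the choice implies: every 4 mM library lay above every vehicle library in 96 members, every 10 mM library lay below every vehicle library in 92, and both held in 89. The same libraries chose the members, and the share of eligible genes with such a separation was not counted, so these counts are no result about the members. At 6 mM the group mean was above the vehicle in 98 members, all but Zfp467 and Cdc6, and the share of eligible genes was not counted. The fall from 4 to 6 mM was a median of 19.6% of that from 4 to 10 mM on the log2 scale. The vehicle, 4 mM and 10 mM means in these figures chose the members. The dose at which the descent set in was therefore not tested.

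**Figure D1:**
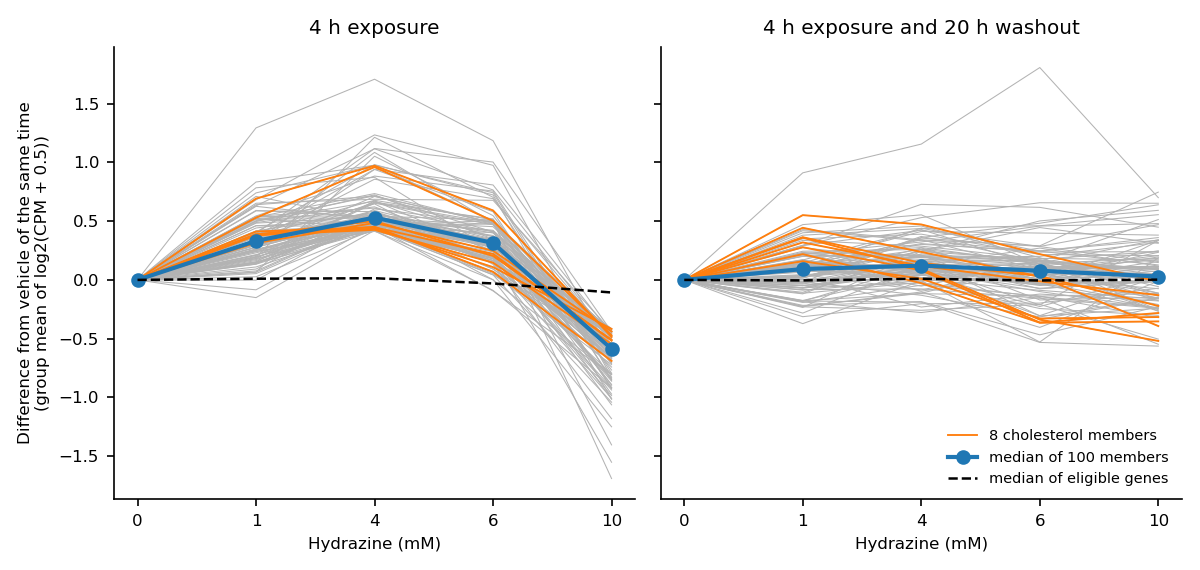
Difference from the vehicle of the same time in group mean log2(CPM + 0.5), against hydrazine dose (mM, evenly spaced), after 4 h (left) and after washout (right). Grey lines are the 100 members, orange lines the 8 cholesterol members, the blue line the members' median and the dashed line the median of eligible genes; the 4 and 10 mM values at 4 h chose the members, whose median after washout lay between 0.03 and 0.12.

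The highest score belonged to Cd46, a membrane regulator of complement, at a low level. Its libraries read 2.00, 3.26 and 1.97 CPM in the vehicle, 4.93, 6.23, 5.02, 5.16 and 6.61 at 4 mM and 0.451, 0.95 and 0.409 at 10 mM. The 4 mM and 10 mM libraries overlapped neither each other nor the vehicle. Per3, a period protein of the circadian clock, read 8.19, 8.83 and 6.56 CPM in the vehicle, 13.9, 17.0, 14.8, 16.0 and 17.8 at 4 mM and 2.52, 1.98 and 1.77 at 10 mM. Gxylt2, which adds xylose to sugars on Notch receptors, was the most abundant of the 20 top scorers. It read 62.7, 85.0 and 70.4 CPM in the vehicle, 128, 142, 134, 123 and 142 at 4 mM and 45.0, 40.8 and 38.6 at 10 mM. Neither gene's 3 groups overlapped. Rassf2, a Ras-binding tumour suppressor, had the widest rise to 4 mM of any member. It read 2.18, 2.57 and 1.22 CPM in the vehicle, 5.58, 8.36, 7.13, 8.39 and 7.90 at 4 mM and 0.992, 0.95 and 1.23 at 10 mM, and here the 10 mM libraries reached the lowest vehicle library. The other top scorers were Gm12258, Cep83os, 4933431E20Rik, Apobr, Rhbdl3, Gm43031, Mmab, Dixdc1, Shank2, Dna2, Tbc1d24, Tlcd1, Snn, Gpr19, Uvssa and Gm47640.

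Doses that the choice did not use were tested with edgeR's quasi-likelihood test and Benjamini-Hochberg adjustment over 13258 genes, with calls at an adjusted p below 0.05. All 100 members were tested. The comparisons of 1 and 6 mM with the vehicle at 4 h share the vehicle libraries that the choice used. At 1 mM, 33 members rose and 0 fell, where 4.48% of all tested genes rose and 5.36% fell. At an unadjusted p below 0.05, 59 members were higher and 0 lower, and DESeq2 also called 0 lower. Shares of all tested genes were counted at adjusted p only, so counts by unadjusted p have no background here. The members' median log2 fold change at 1 mM was 0.34, against 0.01 over all tested genes. At 6 mM, 53 members rose and 0 fell, where 20.3% of all tested genes rose and 19.6% fell. By unadjusted p, 63 were higher and 0 lower at 6 mM, DESeq2 again called 0 lower, and the members' median was 0.37. At least 1.5-fold was reached by 10 of the 33 and by 15 of the 53.

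Rassf2 had the greatest increase among the members at both doses, with libraries at 5.70, 5.09 and 5.51 CPM at 1 mM and 4.58, 5.95 and 4.58 at 6 mM, all above the vehicle. Its log2 fold change was 1.43 at 1 mM (SE 0.24, adjusted p = 2.20e-04) and 1.36 at 6 mM (SE 0.24, adjusted p = 3.66e-05). Per3 rose at 1 mM (log2 fold change 0.77, SE 0.14, adjusted p = 6.30e-04) and at 6 mM (log2 fold change 0.56, SE 0.15, adjusted p = 0.00229). Sh3tc2, a protein of endosomal recycling, rose at 6 mM (log2 fold change 0.86, SE 0.09, adjusted p = 2.12e-09). Map3k5, the stress kinase ASK1, rose at 6 mM (log2 fold change 0.45, SE 0.11, adjusted p = 0.00102), as did Casp9, the initiator caspase of the mitochondrial death pathway (log2 fold change 0.56, SE 0.11, adjusted p = 9.69e-05). Castor2, whose product acts upstream of mTORC1, rose at 1 mM (log2 fold change 0.66, SE 0.17, adjusted p = 0.0146), a call lost without vehicle library a or c or 1 mM library b. The solute carrier gene Slc38a9 did not pass the test at either dose, with adjusted p of 0.0857 and 0.209. Pfkfb4 and Pfkfb1, which set the level of the glycolytic activator fructose 2,6-bisphosphate, did not pass it either, with adjusted p between 0.0942 and 0.335.

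The comparison of 6 mM with 1 mM at 4 h shares no library with the choice. In it 9 members rose and 11 fell, where 16.1% of all tested genes rose and 17.4% fell, and the members' median difference was 0.03. The share of members called was thus close to or below that of all genes, and the members did not move as a block between these doses. The members that rose were Sh3tc1, Gm43031, Apobr, Sh3tc2, Nabp1, Slc7a11, Rps6ka2, Endov and Pskh1. The greatest of these rises was in Sh3tc1, at 4.19, 4.03 and 3.07 CPM at 1 mM and 5.78, 6.29 and 5.80 at 6 mM (log2 fold change 0.71, SE 0.18, adjusted p = 0.00258), with no overlap. The members that fell were the mitochondrial carrier gene Sfxn5, Tmem241, Dna2, Zfp467, 6430548M08Rik and Klhl23, together with Crb2, Cdc6 and 3 cholesterol genes, Idi1, Stard4 and Acat2. The count of falls ranged from 3 to 12 when single libraries were left out, with 3 without 6 mM library a, 7 without 1 mM library b and 5 without 1 mM library c or 6 mM library c. The count of rises ranged from 5, without 6 mM library b, to 13.

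**Figure D2:**
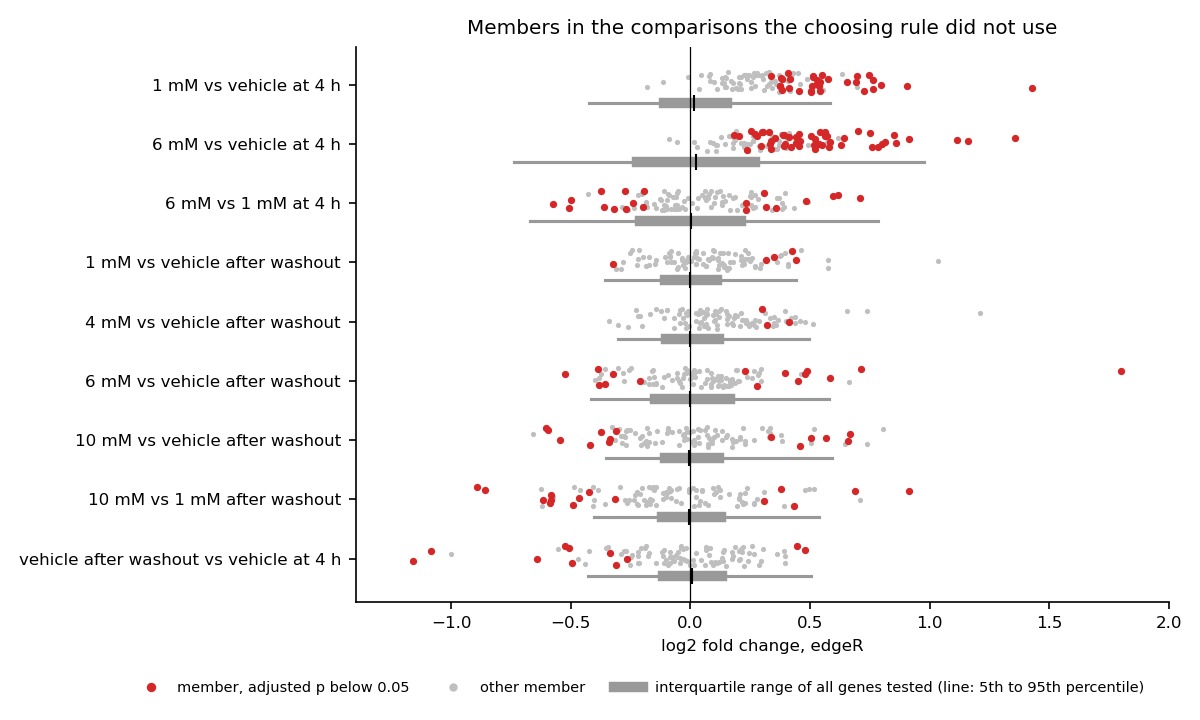
Log2 fold changes of the 100 members (dots; red where adjusted p is below 0.05) in 9 comparisons that the choice did not use, with the interquartile range and the 5th to 95th percentile of all 13258 tested genes as grey bars and lines. The comparisons of 1 and 6 mM with the vehicle at 4 h, and that between the vehicles, share the 4 h vehicle libraries that the choice used. The members lie mostly to the right at 1 and 6 mM at 4 h, with medians of 0.34 and 0.37, and are spread on both sides of 0 after washout.

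Of 31 gene lists looked up among the members, 8 held a member. The list of 26 genes for cholesterol synthesis and uptake held the largest share, with 8 members among its 25 eligible genes, or 32%. Members made up 0.963% of all eligible genes. In that list 21 eligible genes had a score above 0, as did 24.4% of all eligible genes. Its median score was 0.25, where that of all eligible genes was -0.14 and that of zinc finger genes was -0.10. These scores chose the members and were not tested. The members were Hmgcs1 (HMG-CoA synthase), Acat2 (acetoacetyl-CoA thiolase), Pmvk and Mvd (which phosphorylate and decarboxylate mevalonate products), Idi1 (isopentenyl diphosphate isomerase), Lss (lanosterol synthase), Tm7sf2 (a sterol reductase) and Stard4 (a cytosolic sterol carrier). A further member, Mmab, makes the adenosyl form of vitamin B12 and is known to share its promoter region with Mvk, mevalonate kinase.

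The promoters of 4 of the enzymes are shown because NF-Y, which binds CCAAT, is a known partner of SREBP2 in this pathway. The windows run from 250 bases before to 50 after the RefSeq transcript start on GRCm38.p6 and are written 5′ to 3′ on the strand of the gene. Capitals mark CCAAT or its reverse complement ATTGG and, in Hmgcs1, a match to the sterol element pattern TCACNCCAC. The window of Hmgcs1 is chr13:119690101-119690400 (plus strand), that of Idi1 chr13:8885356-8885655 (plus strand), that of Mvd chr8:122443373-122443672 (minus strand) and that of Lss chr10:76531355-76531654 (plus strand).
Hmgcs1: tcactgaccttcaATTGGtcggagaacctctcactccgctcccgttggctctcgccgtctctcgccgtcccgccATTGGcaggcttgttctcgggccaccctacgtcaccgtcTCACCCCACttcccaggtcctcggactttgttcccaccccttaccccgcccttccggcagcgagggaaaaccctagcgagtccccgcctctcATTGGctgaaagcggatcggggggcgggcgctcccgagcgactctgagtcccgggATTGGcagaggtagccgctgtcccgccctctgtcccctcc
Idi1: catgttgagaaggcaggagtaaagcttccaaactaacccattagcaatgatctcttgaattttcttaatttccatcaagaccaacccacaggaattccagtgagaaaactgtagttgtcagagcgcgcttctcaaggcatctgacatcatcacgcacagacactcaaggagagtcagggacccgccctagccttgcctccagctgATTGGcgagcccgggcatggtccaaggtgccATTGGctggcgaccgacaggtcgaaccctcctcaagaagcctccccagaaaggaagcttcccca
Mvd: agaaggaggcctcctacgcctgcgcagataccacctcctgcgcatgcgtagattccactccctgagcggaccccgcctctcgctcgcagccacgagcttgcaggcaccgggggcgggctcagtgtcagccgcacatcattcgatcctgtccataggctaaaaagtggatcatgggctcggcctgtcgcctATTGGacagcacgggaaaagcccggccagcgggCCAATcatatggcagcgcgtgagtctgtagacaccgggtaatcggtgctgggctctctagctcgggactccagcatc
Lss: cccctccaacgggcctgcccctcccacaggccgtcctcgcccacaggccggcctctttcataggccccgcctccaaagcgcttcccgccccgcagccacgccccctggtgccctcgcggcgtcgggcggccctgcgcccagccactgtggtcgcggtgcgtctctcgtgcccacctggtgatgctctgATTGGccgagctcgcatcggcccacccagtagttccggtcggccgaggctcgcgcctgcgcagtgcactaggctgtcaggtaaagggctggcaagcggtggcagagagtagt

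CCAAT was found on either strand in 6 of the 7 cholesterol members with a window, and in 16 of 18 genes of the whole list. Among all members with a window it was found in 44 of 85, or 51.8%, and among eligible genes in 3551 of 8142, or 43.6%. The pattern TCACNCCAC, which was added after the member list had been seen, was found in 3 members, Hmgcs1 and Casp9 among them, or 3.53% of members with a window against 1.36% of eligible genes. It was found in only 1 of the 7 cholesterol members and 1 of the 18 list genes. The Sp1 motif GGGCGG was found in 6 of the 7 cholesterol members and 17 of the 18 list genes, beside 67.1% of members and 72.3% of eligible genes. The E-box CACGTG was found in 7.06% of members and 12.5% of eligible genes, and the ETS motif CCGGAAG in 17.6% and 22.6%. The antioxidant core TGACNNNGC was found in 14.1% and 16.9%, the cyclic AMP element TGACGTCA in 2.35% and 3.86%, the ATF4 pattern TGATGNAA in 3.53% and 2.46%, and TATAAA in 8.24% and 7.82%. TCACNCCAC did not overlap CCAAT in the Hmgcs1 window. These matches describe letters in the windows and were not tested.

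Hmgcs1 was the most abundant member. At 4 h its libraries read 559, 548 and 517 CPM in the vehicle, 699, 703 and 760.3 at 1 mM, 752, 718, 784, 723 and 716 at 4 mM, 618, 636 and 638 at 6 mM, with 391, 402 and 343 at 10 mM. The vehicle, the 6 mM and the 10 mM libraries each formed a separate range, with 1 and 4 mM overlapping above them. Hmgcs1 rose at 1 mM (log2 fold change 0.41, SE 0.07, adjusted p = 2.35e-04) and at 6 mM (log2 fold change 0.26, SE 0.07, adjusted p = 0.00329). Mvd showed the steepest climb of the enzymes between vehicle and 1 mM that passed the test. It read 59.7, 55.9 and 54.4 CPM in the vehicle, 85.5, 95.2 and 95 at 1 mM, 116, 112, 114, 106 and 109.6 at 4 mM, 84.6, 86.8 and 85.3 at 6 mM, with 45.6, 39.8 and 36.0 at 10 mM (log2 fold change 0.69, SE 0.09, adjusted p = 1.73e-05 at 1 mM). Every group at a dose up to 6 mM lay above the vehicle. Idi1 read 250.2, 247 and 234 CPM in the vehicle, 302, 324 and 326 at 1 mM, 323, 327, 361, 332 and 328 at 4 mM, 228, 275 and 267 at 6 mM, with 152, 161 and 140.2 at 10 mM. Its 6 mM libraries overlapped the vehicle, and Idi1 rose at 1 mM (log2 fold change 0.37, SE 0.07, adjusted p = 7.88e-04) but was not called at 6 mM (adjusted p = 0.252). Whether the 2 effects differed was tested as 6 against 1 mM, where Idi1 was lower at 6 mM (log2 fold change -0.27, SE 0.07, adjusted p = 0.00377).

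Of the 8 cholesterol members, 6 rose at 1 mM, where 4.48% of all tested genes rose, and 6 rose at 6 mM, where 20.3% did. At 1 mM these were Hmgcs1, Mvd, Acat2, Idi1, Lss and Stard4, and at 6 mM Hmgcs1, Mvd, Tm7sf2, Pmvk, Acat2 and Lss. Among the 18 other genes of the list, which the choice had left out, 8 rose at 1 mM and 7 at 6 mM, against the same backgrounds. Dhcr7, the last reductase of the route, was among them, with log2 fold changes of 0.61 at 1 mM (adjusted p = 1.24e-05) and 0.65 at 6 mM (adjusted p = 1.99e-07). The median log2 fold change of these 18 genes was 0.21 at 1 mM and 0.12 at 6 mM. All of these comparisons share the 4 h vehicle.

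After washout the cholesterol members had another order by dose, in libraries that the choice did not use. Hmgcs1 read 345, 389.8 and 298 CPM in the vehicle, 413, 452 and 452 at 1 mM, 358, 383 and 356 at 4 mM, 278, 281 and 254 at 6 mM, with 244, 237 and 234 at 10 mM. The 1 mM libraries lay above all others and the 10 mM libraries below all others. Hmgcs1 rose at 1 mM (log2 fold change 0.35, SE 0.07, adjusted p = 0.0121) and fell at 6 mM (log2 fold change -0.36, SE 0.07, adjusted p = 0.00108) and at 10 mM (log2 fold change -0.54, SE 0.07, adjusted p = 4.07e-06). Mvd read 36.0, 46.2 and 36.2 CPM in the vehicle, 55.5, 56.8 and 48.6 at 1 mM, 45.2, 52.8 and 41.7 at 4 mM, 39.5, 35.3 and 45.9 at 6 mM, with 30.1, 28.4 and 30.8 at 10 mM. The 10 mM libraries were again below all others, and Mvd rose at 1 mM (log2 fold change 0.44, SE 0.10, adjusted p = 0.0255) and fell at 10 mM (log2 fold change -0.42, SE 0.10, adjusted p = 0.00992). Idi1 read 204, 233 and 186 CPM in the vehicle, 234, 254 and 235 at 1 mM, 192, 217 and 200.4 at 4 mM, 169, 164 and 149.6 at 6 mM, with 157, 160.3 and 168 at 10 mM. The 6 and 10 mM libraries lay below every vehicle library, and Idi1 fell at 6 mM (log2 fold change -0.38, SE 0.07, adjusted p = 7.92e-04) and at 10 mM (log2 fold change -0.38, SE 0.07, adjusted p = 0.00108).

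Against the washout vehicle, 3 cholesterol members rose at 1 mM (Hmgcs1, Mvd and Acat2), 4 fell at 6 mM (Hmgcs1, Idi1, Lss and Stard4) and 5 fell at 10 mM (Hmgcs1, Idi1, Lss, Mvd and Stard4). Of all tested genes, 0.694% rose at 1 mM, 4.63% fell at 6 mM and 1.94% fell at 10 mM. At 4 mM none of the 8 was called, with a median log2 fold change of 0.08. The rises at 1 mM were lost without vehicle library c or 1 mM library c, and when only the washout libraries were fitted, where no member was called. Without library c of 6 mM, Hmgcs1 (adjusted p = 0.0035), Idi1 (adjusted p = 0.00313) and Lss (adjusted p = 0.0474) still fell at 6 mM and Stard4 did not (adjusted p = 0.0713). When only the washout libraries were fitted, Hmgcs1 (adjusted p = 0.0281) and Idi1 (adjusted p = 0.0176) fell at 6 mM and Lss and Stard4 were not called. When only the 6 mM and vehicle libraries were fitted, none of the 4 was called, with adjusted p from 0.277 to 0.471. At 10 mM, Hmgcs1 and Idi1 kept their calls without any single library. Stard4 and Mvd lost theirs without vehicle library b, and without 10 mM library a and 10 mM library b respectively, and Lss lost its call without vehicle library a or b or any 10 mM library. In the fit of the washout libraries alone, Hmgcs1 (adjusted p = 0.0026) and Idi1 (adjusted p = 0.0221) were the cholesterol members called at 10 mM.

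The ends of the dose range were compared directly after washout, a comparison added after the data had been seen. At 10 mM against 1 mM, 7 of the 8 cholesterol members were lower, from -0.47 (SE 0.07, adjusted p = 3.09e-05) in Acat2 to -0.89 (SE 0.07, adjusted p = 6.02e-10) in Hmgcs1. Of all tested genes, 2.7% were lower in this comparison. These 7 calls held in all 32 fits that left out 1 library each and in the other settings tried. Tm7sf2, the least abundant, was the exception, with a log2 fold change of -0.62 and an adjusted p of 0.0549. Of the 18 list genes that were not members, 12 were lower, with a median of -0.48. Among them were Fdft1, squalene synthase, at -0.67 (adjusted p = 6.32e-07) and Dhcr7 at -0.51 (adjusted p = 2.62e-04). Srebf2, which encodes SREBP2, was not called, at -0.12 (adjusted p = 0.365). At 4 h, however, it was higher than in the vehicle at 6 mM (0.31, adjusted p = 8.62e-04) and was not called at 1 mM (0.10, adjusted p = 0.455).

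**Figure D3:**
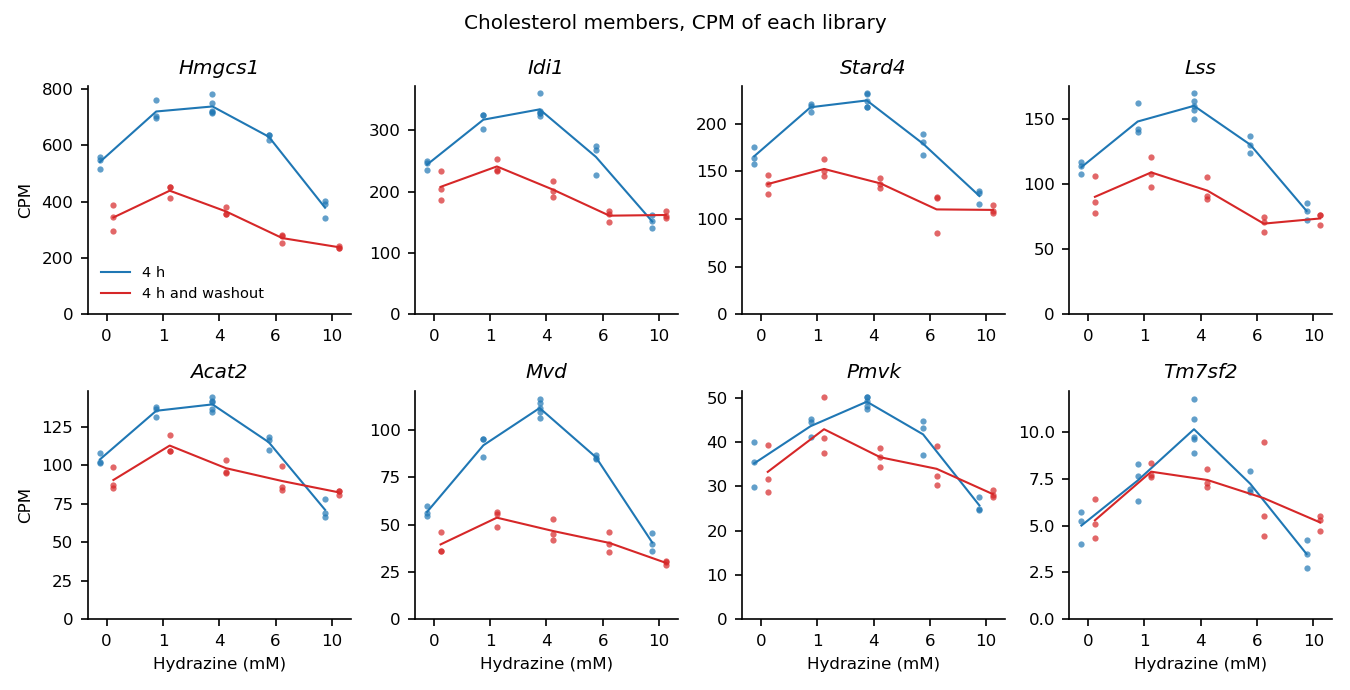
CPM of each library (dots) and group mean (line) for the 8 cholesterol members, against hydrazine dose (mM, evenly spaced), after 4 h (blue) and after washout (red). At 4 h every gene is lowest at 10 mM, while after washout the highest mean of each gene is at 1 mM, as in Hmgcs1 at 439 CPM against 239 at 10 mM.

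**Figure D4:**
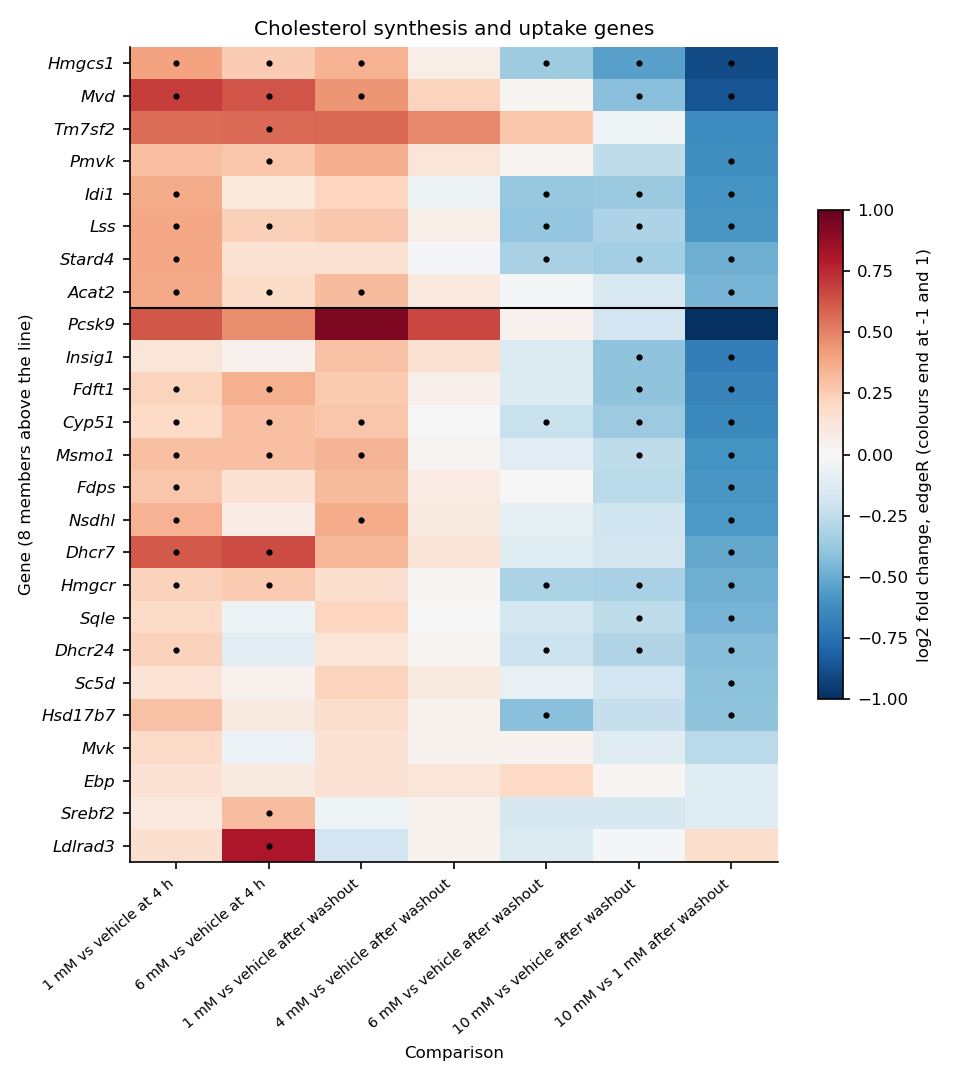
Log2 fold change of 25 of the 26 cholesterol genes (rows; 8 members above the line) in 7 comparisons (columns), with a dot where adjusted p is below 0.05. At 10 mM against 1 mM after washout 19 of the 26 genes were lower, where 2.7% of all tested genes were.

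After washout Mmab read 18.7, 20.8 and 17.3 CPM in the vehicle, 23.2, 22.5 and 24.0 at 1 mM, 26.1, 26.4 and 24.1 at 4 mM, 23.9, 22.8 and 22.7 at 6 mM, with 21.4, 22.5 and 19.2 at 10 mM. All libraries of 1, 4 and 6 mM lay above every vehicle library, and those of 10 mM overlapped the vehicle. Mmab rose at 4 mM (log2 fold change 0.41, SE 0.09, adjusted p = 0.00754), a call lost without vehicle library c, and at 6 mM (log2 fold change 0.28, SE 0.09, adjusted p = 0.0447). The call at 6 mM was lost without library c of 6 mM (adjusted p = 0.082). Mvk, which neighbours it, was called neither at 4 mM (0.04, adjusted p = 0.904) nor at 6 mM (0.03, adjusted p = 0.84).

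Among members with roles in DNA replication and repair, Dna2 fell at 6 and 10 mM after washout and Cdc6 at 1 and 6 mM. Dna2, a nuclease and helicase that trims Okazaki fragments and resects broken ends, read 13.7, 14.3 and 15.4 CPM in the 4 h vehicle, 24.8, 24.9 and 26.1 at 1 mM, 27.9, 27.9, 26.5, 25 and 27.4 at 4 mM, 15.5, 18.5 and 18.2 at 6 mM, with 7.76, 9.66 and 9.47 at 10 mM. The 1 mM libraries were all above the 6 mM libraries, and Dna2 fell between these doses (log2 fold change -0.50, SE 0.11, adjusted p = 6.66e-04). After washout it read 19.0, 19.8 and 19.7 CPM in the vehicle, 20.2, 15.1 and 16.6 at 1 mM, 17.0, 17.0 and 17.1 at 4 mM, 16.0, 15.2 and 9.70 at 6 mM, with 13.1, 13.3 and 12.7 at 10 mM. The vehicle libraries lay above all 4, 6 and 10 mM libraries. Dna2 fell at 10 mM (log2 fold change -0.60, SE 0.12, adjusted p = 0.0012) and at 6 mM (log2 fold change -0.52, SE 0.11, adjusted p = 0.0034; without library c, -0.34 and adjusted p = 0.0257). Its rise at 1 mM at 4 h (log2 fold change 0.80, SE 0.11, adjusted p = 2.88e-05) was not seen after washout, and the difference between the 2 effects passed the test (log2 fold change -0.97, SE 0.16, adjusted p = 0.00154).

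Cdc6, which loads the MCM helicase onto replication origins, read 47.6, 47.1 and 51.0 CPM in the 4 h vehicle, 66.2, 63.6, 68.3, 62.2 and 65.1 at 4 mM, 44.5, 47.0 and 45.3 at 6 mM, with 24.5, 26.1 and 25.8 at 10 mM. It was 1 of 2 members whose 6 mM mean was not above the vehicle. After washout it read 44.9, 42.2 and 52.2 CPM in the vehicle, 39.0, 34.2 and 38.4 at 1 mM, 40.1, 41.5 and 38.7 at 4 mM, 44.1, 39.7 and 37.3 at 6 mM, with 43.9, 43.8 and 44.3 at 10 mM. Cdc6 fell at 1 mM (log2 fold change -0.32, SE 0.07, adjusted p = 0.0229), a call lost without vehicle library c or 1 mM library b or c and when only the washout libraries were fitted. It also fell at 6 mM (log2 fold change -0.21, SE 0.07, adjusted p = 0.0451), a call lost without library c (-0.17, adjusted p = 0.19). It was not called at 4 mM (adjusted p = 0.0631) or at 10 mM (adjusted p = 0.532). Uvssa, a factor of transcription-coupled repair, was not called in any of these comparisons. Nabp1, a single-strand DNA binding protein, rose at 6 mM at 4 h (log2 fold change 0.50, SE 0.10, adjusted p = 9.92e-05), and so did Endov, a nuclease for inosine (log2 fold change 0.33, SE 0.08, adjusted p = 6.23e-04). Of the 35 tested genes for replication forks and licensing, 7 rose and 1 fell at 1 mM at 4 h, where 4.48% and 5.36% of all tested genes did. At 6 mM 6 rose and 5 fell, no more than the background of 20.3% and 19.6%. After washout 4 fell at 1 mM, 3 at 4 mM, 6 at 6 mM and 3 at 10 mM, where 0.287%, 1.17%, 4.63% and 1.94% of all tested genes fell.

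Nqo1 and Slc7a11 are targets of NRF2, the factor that raises antioxidant genes. Nqo1, a quinone reductase, read 19.3, 27.3 and 25.2 CPM in the 4 h vehicle, 30.6, 35.1, 30.7, 36.5 and 34.4 at 4 mM and 16.2, 15.1 and 16.8 at 10 mM. The 3 groups did not overlap. After washout it read 9.72, 9.29 and 12.8 CPM in the vehicle, 10.8, 11.2 and 9.22 at 1 mM, 14.9, 13.9 and 12.3 at 4 mM, 13.6, 17.0 and 14.3 at 6 mM, with 15.1, 14.8 and 20.6 at 10 mM. The washout vehicle was far under the 4 h vehicle (log2 fold change -1.16, SE 0.14, adjusted p = 2.27e-06), and Nqo1 rose above it at 6 mM (log2 fold change 0.48, SE 0.14, adjusted p = 0.0287) and at 10 mM (log2 fold change 0.66, SE 0.14, adjusted p = 0.00338). Without library c of 6 mM the adjusted p at 6 mM was 0.0556, and the call at 10 mM was lost without 10 mM library c. Nqo1 was also higher at 10 mM than at 1 mM after washout (log2 fold change 0.69, SE 0.14, adjusted p = 0.00245), and that call held in all 32 fits that left out 1 library. Its direction by dose after washout was thus opposite to that of the cholesterol enzymes.

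Slc7a11, which imports cystine for glutathione synthesis and is also a target of ATF4, read 49.8, 42.0 and 52.1 CPM in the 4 h vehicle, 55.2, 52.6 and 58.1 at 1 mM, 72.8, 75.5, 77.3, 71.2 and 81.9 at 4 mM, 68.2, 64.6 and 68.3 at 6 mM, with 33.9, 30.5 and 30.8 at 10 mM. The 6 mM libraries lay above all 1 mM libraries and below all 4 mM libraries. Slc7a11 rose from 1 to 6 mM (log2 fold change 0.32, SE 0.07, adjusted p = 6.11e-04), and it was not called against the vehicle at any dose after washout. Of the 37 tested ATF4 targets, 34 rose at 6 mM against the 4 h vehicle, where 20.3% of all tested genes rose, and Slc7a11 was the list's only member among the 100. Of the 26 NRF2 targets, 6 rose and 3 fell at 6 mM at 4 h, close to or below the background of 20.3% and 19.6%. After washout 4 rose and 5 fell at 6 mM, where 6.43% and 4.63% of all tested genes did, and 2 rose and 3 fell at 10 mM, where 3.38% and 1.94% did. In the washout vehicle against the 4 h vehicle, 10 of the 26 fell, where 3.55% of all tested genes fell.

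Ugt1a7c, which encodes an enzyme that attaches glucuronic acid to foreign compounds, had the greatest log2 fold change of any member after washout. It read 21.4, 13.2 and 22 CPM in the washout vehicle and 74.5, 53.4 and 70.8 at 6 mM (log2 fold change 1.80, SE 0.48, adjusted p = 0.0174; without library c, 1.74 and adjusted p = 0.0475). Its libraries were widely spread in other groups, with 16.6, 51.8 and 46.2 CPM in the 4 h vehicle. The genes of this cluster share exons, so the assignment of reads to Ugt1a7c is uncertain. The call was also lost without vehicle library b.

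**Figure D5:**
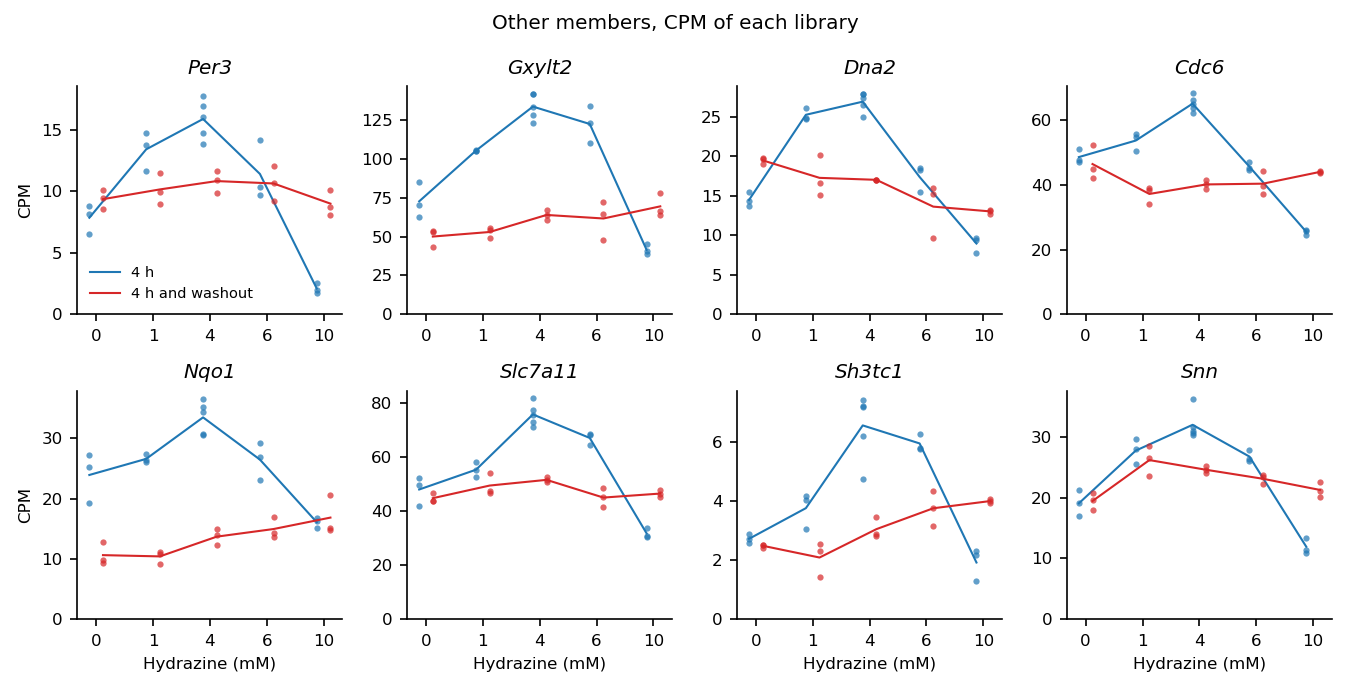
CPM of each library (dots) and group mean (line) for 8 other named members, against hydrazine dose (mM, evenly spaced), after 4 h (blue) and after washout (red). After washout Dna2 is lower at 6 and 10 mM than in the vehicle, while Nqo1 and Sh3tc1 are higher, and at 4 h all 8 have their highest mean at 4 mM and their lowest at 10 mM.

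Per3 was the only clock gene among the members. Of the 18 tested clock genes, 13 rose at 6 mM at 4 h, where 20.3% of all tested genes rose, with a median log2 fold change of 0.55, and only 2 of the 16 eligible had a score above 0. After washout Per3 read 9.43, 10.1 and 8.56 CPM in the vehicle and 8.11, 10.2 and 8.78 at 10 mM, with no call at any dose. Zinc finger genes named Zfp gave 7 members of 330 eligible, or 2.12%, beside 0.963% of all eligible genes. These were Zfp169, Zfp213, Zfp467, Zfp862-ps, Zfp579, Zfp235 and Zfp93, with means from 4.30 CPM (Zfp235) to 12.6 CPM (Zfp579) in the 4 h vehicle. At 1 mM none of the 7 was called (lowest adjusted p = 0.06), and at 6 mM Zfp213 (log2 fold change 0.42, SE 0.15, adjusted p = 0.0257) and the pseudogene Zfp862-ps (log2 fold change 0.75, SE 0.20, adjusted p = 0.00355) rose. Zfp467 was lower at 6 than at 1 mM (log2 fold change -0.58, SE 0.21, adjusted p = 0.0382), with libraries at 4.96, 4.91 and 4.58 CPM against 6.12, 8.97 and 7.08. Zinc finger genes are near copies of each other in part, so their counts are uncertain where reads are shared. None of the 7 was called against the vehicle after washout (lowest adjusted p = 0.0839). No member came from the lists of p53 targets (29 eligible genes), mitosis (34), ribosome biogenesis (30), immediate early genes (20) or collagen and matrix genes (26). With members at 0.963% of all eligible genes, lists of this size would often hold none, so these absences are no result about the members.

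Over all members, few were called after washout, in libraries that the choice did not use. At 1 mM 4 rose and 1 fell, where 0.694% and 0.287% of all tested genes did, with a median of 0.08. The 5 were Hmgcs1, Mvd, Acat2, Snn and Cdc6. At 4 mM 3 rose and 0 fell, where 2.31% and 1.17% did, with a median of 0.11. By unadjusted p, 27 members were higher and 2 lower at 4 mM, with no share of all tested genes counted at that threshold. DESeq2 called 1 lower. The 3 were Mmab, Snn and Pskh1. Snn encodes stannin, a small membrane protein linked to organotin toxicity, and read 20.9, 19.7 and 17.9 CPM in the washout vehicle, 26.5, 23.7 and 28.5 at 1 mM and 24.1, 24.7 and 25.2 at 4 mM. Both treated groups lay above every vehicle library. The rises at 1 mM all went without vehicle library c or 1 mM library c, fell to 2 and 1 without vehicle library a and 1 mM library b, and numbered 7 without library c of 6 mM. Those at 4 mM all went without vehicle library c, fell to 1 without 4 mM library a, and numbered 7 without library c of 6 mM.

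At 6 mM after washout 9 members rose and 6 fell, where 6.43% and 4.63% of all tested genes did, with a median of 0.07. Without library c of that group, 7 rose and 4 fell. The count of rises fell to 4 without vehicle library a or b or 6 mM library b, and to 2 without vehicle library c. Besides those described, 6 members rose. Of these, Mmp28, a matrix metalloproteinase (log2 fold change 0.72, without library c 0.83), Sh3tc1 (0.59, without it 0.69), Ikbke, a kinase of innate immune signalling (0.39, without it 0.48), and Pskh1 (0.23, without it 0.26) were called with and without library c. Tcta (log2 fold change 0.45, adjusted p = 0.00925) and Sh2d4a (0.49, adjusted p = 0.0243) lost their calls without it, at 0.35 (adjusted p = 0.0631) and 0.41 (adjusted p = 0.121), and Gxylt2 was called then (0.43, adjusted p = 0.0105). When only the 6 mM and vehicle libraries were fitted, none of the 15 was called. When only the washout libraries were fitted, Ugt1a7c, Hmgcs1 and Idi1 were. At 10 mM 6 rose and 8 fell, where 3.38% and 1.94% did, with a median of 0.02. The 6 were Sh3tc1, Nqo1, Phactr1, Sh2d4a, Gxylt2 and the kinase gene Rps6ka2. The count of rises was 1 without 10 mM library c, 3 without 10 mM library a or vehicle library b, and 13 without library c of 6 mM. The count of falls was 4 without vehicle library b or 10 mM library a, and 5 without 10 mM library b. Besides the 5 cholesterol members and Dna2, the 8 falls were Klhl23 and the antisense transcript Gm37422. When only the washout libraries were fitted, 1 rose at 10 mM, Nqo1, and 4 fell, Hmgcs1, Idi1, Dna2 and Gm37422. Gxylt2 read 53.6, 43.5 and 52.9 CPM in the washout vehicle and 63.7, 66.6 and 78.1 at 10 mM, with no overlap (log2 fold change 0.46, SE 0.11, adjusted p = 0.0117).

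At 10 mM against 1 mM after washout 5 members were higher and 10 lower, where 3.15% and 2.7% of all tested genes were. The 10 were the 7 cholesterol genes, Sfxn5, Dna2 and Snn, and the 5 were Sh3tc1, Nqo1, Rps6ka2, Gxylt2 and Efnb1, an ephrin ligand. The count of higher members was 2 without 1 mM library b, 3 without 10 mM library b and 9 without library c of 6 mM. Sh3tc1 read 2.54, 1.42 and 2.31 CPM at 1 mM and 3.99, 3.94 and 4.08 at 10 mM (log2 fold change 0.91, SE 0.20, adjusted p = 0.00437), without overlap. The washout vehicle was also compared with the 4 h vehicle, which the choice had used. There 2 members were higher and 9 lower, where 3.33% and 3.55% of all tested genes were, with a median of -0.04. Dna2 and Sfxn5 were higher, and the lower ones included Nqo1, Shank2, Hmgcs1, Gxylt2, Mvd and Rassf7. Hmgcs1 differed by -0.64 on the log2 scale (SE 0.07, adjusted p = 2.98e-07). Without 4 h vehicle library a, b or washout vehicle library a or c, the lower count was 5, 3, 4 or 5, and the higher count was 0 without 4 h vehicle library a or washout vehicle library b.

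Whether a dose acted differently at the 2 times was tested as the washout effect less the 4 h effect, in comparisons added after the data had been seen that also share the 4 h vehicle. At 1 mM 0 members had a higher effect after washout and 4 a lower one, where 0.551% and 0.543% of all tested genes did. The 4 were Dna2, Klhl23, Crb2 and Cdc6, and the count was 11 without library c of 6 mM and 1 or 2 without 4 h vehicle library a, any 1 mM library at 4 h, washout vehicle library a or b, or washout 1 mM library b. By unadjusted p, 0 members were higher and 31 lower, and DESeq2 called 0 higher. The share of all tested genes by unadjusted p was not counted at either dose. At 6 mM 0 members had a higher effect after washout and 27 a lower one, where 12.3% and 12.2% of all tested genes did, and without library c of 6 mM 21 did. By unadjusted p, 2 were higher and 42 lower, and DESeq2 called 1 higher. The count was 15 without 6 mM library b at 4 h. The lower ones included Rhbdl3, Rassf2, Zfp862-ps, Gm43031, Sh3tc2, Greb1l and 5 cholesterol genes. Sh3tc2 stood at 35.4, 43.0 and 36.5 CPM at 6 mM against 22.6, 21.0 and 21.2 in the 4 h vehicle, and at 21.9, 18.9 and 21.5 against 21.1, 22.3 and 20.1 after washout. Its 4 h groups did not overlap and its washout groups did, and the difference of the effects passed the test (log2 fold change -0.90, SE 0.12, adjusted p = 2.40e-06).

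By GENCODE M21, 93 of the 100 members were protein coding, beside 97% of eligible genes. The other 7 were the antisense transcripts 4933431E20Rik and Gm37422, Cep83os (a non-coding transcript from a bidirectional promoter), the sense intronic Gm43031, Gm47640 (a provisional gene model), the processed pseudogene Gm14276 and Zfp862-ps. 4933431E20Rik rose at 1 mM (log2 fold change 0.91, SE 0.19, adjusted p = 0.00176) and at 6 mM at 4 h (log2 fold change 0.85, SE 0.19, adjusted p = 5.97e-04). Another annotated gene overlapped 23 members on the same strand and 47 on the opposite strand, and whether the authors' counting used the strand was not given in the sources used here. Overlaps were not counted over eligible genes, so these counts bear only on the reading of the members' values. Cd46, Per3, Gxylt2, Slc7a11, Tm7sf2 and Gm43031 are among those with a same-strand overlap, and their counts may hold reads of the neighbour. Members were close to eligible genes in length, with a median of 26.5 kb against 24.9 kb, and in number of exons in the longest transcript, with 8 in both. Their longest transcripts had a median of 4194 bases against 3517.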

How the data were processed

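The RNA of 32 libraries was measured by poly-A selected, stranded sequencing, per the labels' protocols. The deposited table holds expected counts for each gene, estimated by the authors. Its aligner, quantifier settings and genome build were not given in the sources that were used here. Counts were rounded, and CPM was computed from library totals. Genes passing edgeR's filter (minimum count 10, minimum total 15) numbered 13258. They were scaled by TMM and fitted in 1 model with a coefficient per group and robust estimation (edgeR 4.0.16, R 4.3.3). The test was edgeR's quasi-likelihood test, with p-values adjusted by the Benjamini-Hochberg method across the 13258 genes and calls at 0.05. The fit had 22 residual degrees of freedom, and its common biological coefficient of variation was 0.0847. TMM factors at 10 mM at 4 h were 0.912 to 0.923.

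The members, gene lists and tests were chosen with earlier results of these data known, and the tests of 10 against 1 mM after washout and of differences between times were added after the data had been seen, as was the motif TCACNCCAC. Comparisons of 4 and 10 mM with vehicle at 4 h were not tested, since they chose the members. Named members were the 20 highest scores, the 10 most abundant, those in a list, the up to 6 largest called changes per direction of a comparison, and the edge of the choice. Endov, Pfkfb4, Pfkfb1, Casp9, Castor2, Ikbke, Tmod2, Elmod3 and Gm14276 were named after their values were seen, as were Dhcr7, Fdft1, Mvk and Srebf2 of the cholesterol list, which are not members. Locations and biotypes came from GENCODE M21 on GRCm38, and promoters from RefSeq on GRCm38.p6, where 85 members matched. Some genes of the lists are not reported here. The scripts were tested on simulated data. Alternatives were DESeq2 1.42.0, its size factors, no filter, fits on fewer groups, a replicate block, no robust estimation, a fold threshold, other settings of the choice and leaving out each library.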

Additional observations from a re-analysis of the deposited data

Results flagged for a closer look

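The 5 libraries of 4 mM at 4 h allowed a check for a distant library, made on 69 named members, and chance flags about 1 in 20 groups. Library b stood above the others for Snn, at 36.4 CPM, and for Zfp169, at 9.49 CPM. Library c stood above the others for Idi1, at 361 CPM. In all 3 genes the remaining 4 mM libraries still lay above every vehicle library.

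The effect of hydrazine differed between the 2 times by the test of the difference in 4 members at 1 mM and in 27 members at 6 mM, all with a lower effect after washout. Of all tested genes, 0.543% and 12.2% had a lower effect. Both comparisons use the 4 h vehicle that helped choose the members. When single libraries were left out, the counts ran from 1 to 11 and from 15 to 29.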

How the results depend on the processing

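Counts below are of members called higher and lower by edgeR's quasi-likelihood test unless another tool is named, and the cause of each shift was not tested. No named member's result reversed. A minimum of 1.5-fold left 10 higher at 1 mM and 15 higher at 6 mM against vehicle at 4 h, and 3 and 0 for 6 against 1 mM. After washout it left 0 and 0 at 1 mM, 0 higher at 4 mM, 3 and 0 at 6 mM, 2 and 2 at 10 mM, 2 and 4 for 10 against 1 mM, 0 and 3 between the vehicles, and 15 lower for the difference between times at 6 mM. Fitting only the groups compared gave 16 higher for 6 against 1 mM at 4 h, and after washout 0 and 0 at 1 mM, 12 and 1 at 4 mM, 0 and 0 at 6 mM and 11 higher at 10 mM, with 1 and 11 for the difference between times at 6 mM. Fitting only 1 time point gave 16 higher for 6 against 1 mM at 4 h, and after washout 0 and 0 at 1 mM, 1 higher at 4 mM, 1 and 2 at 6 mM, 1 and 4 at 10 mM and 3 higher for 10 against 1 mM. With no filter 4 were higher at 6 mM after washout and 1 between the vehicles. DESeq2 called 1 lower at 4 mM after washout, 1 higher between the vehicles and 1 higher for the difference between times at 6 mM, and fitting without robust estimation also called 1 higher there. A minimum mean of 1 CPM for the choice kept 31 members, and one of 10 CPM kept 63.

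Leaving out each library gave 22 to 40 higher at 1 mM and 37 to 55 at 6 mM against vehicle at 4 h, with 0 to 0 lower, and 5 to 13 higher and 3 to 12 lower for 6 against 1 mM. After washout it gave 0 to 7 and 0 to 1 at 1 mM, 0 to 7 and 0 to 1 at 4 mM, 2 to 9 and 4 to 8 at 6 mM, 1 to 13 and 4 to 9 at 10 mM, 2 to 9 and 8 to 12 for 10 against 1 mM, and 0 to 3 and 3 to 12 between the vehicles. The difference between times gave 0 to 0 and 1 to 11 at 1 mM, and 0 to 1 and 15 to 29 at 6 mM. Without library c of 6 mM after washout the higher counts were 7 at 1 mM, 7 at 4 mM and 13 at 10 mM after washout, although that library is in none of those groups. Without library b of 6 mM at 4 h, 5 members were higher than at 1 mM and 15 had a lower 6 mM effect after washout. The choice itself, repeated without each library, kept 77 to 94 members, and 42 were kept every time.

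The letters a to c did not pair the libraries, since same-lettered deviations correlated from -0.347 to 0.196. With the replicate block, members higher and lower were 30 and 0 at 1 mM, 49 and 0 at 6 mM, and 10 and 11 for 6 against 1 mM at 4 h. After washout the block gave 4 and 1 at 1 mM, 2 and 0 at 4 mM, 8 and 5 at 6 mM, 6 and 6 at 10 mM and 4 and 10 for 10 against 1 mM. It gave 2 and 7 between the vehicles, and 3 and 27 lower for the differences between times at 1 and 6 mM.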
